A study of Mus musculus with 4 samples.

Results

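The nuclear receptor genes studied here were 45 autosomal genes of the mouse, taken by symbol from a fixed list, out of 20807 autosomal protein-coding genes in the GENCODE annotation of mm10. All 45 symbols were found. Each gene was asked whether RBPJ peaks lay within 1 kb of one of its transcription start sites (TSSs), and which bound regions lay in its body or had it as the nearest protein-coding gene. The rule itself used no measured value, but the list was drawn up with earlier results of these data known. Occupancy by RBPJ was measured in alveolar macrophages (AMs), which live in the airspaces of the lung, in a study of the RXR receptors in these cells. The cells came from WT C57BL/6J mice, 9 weeks old, by bronchoalveolar lavage and FACS, and HT-ChIPmentation, which adds sequencing adapters to chromatin while it is held by the antibody, was run on aliquots of 200000 cells. The series had 2 RBPJ samples and 2 Input samples, all WT, and the labels name no treatment. Each RBPJ sample had its own peak list, with 106228 peaks in replicate 1 and 47224 in replicate 2, while the inputs entered only through the peak calling of the authors. A consensus region was a merged interval holding at least 1 peak of each library, and there were 25208 on autosomes. No source states that the libraries came from separate animals, so differences between them cover technical spread and may or may not cover biological spread. Of 15 AM markers, 13 had a consensus region within 1 kb of a TSS. Of 15 markers of other lung and blood cells, 1 had such a region, namely the epithelial gene Epcam. The share of all autosomal protein-coding genes with one was 34.7%.

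Nuclear receptors are transcription factors, many of which are switched by a small fat-soluble ligand such as a retinoid, a steroid, a fatty acid or an oxysterol. Many bind DNA as heterodimers with an RXR, among them the receptors for retinoic acid, thyroid hormone and vitamin D, the PPARs and the LXRs, whereas the steroid receptors bind as homodimers. In AMs, PPARγ is known as a factor of their development and lipid handling. RBPJ is the DNA-binding partner of Notch receptors and can also act without Notch.

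The main result is which receptor genes had an RBPJ region, and the windows below show sequence under a region of some of them. The windows show 100 bp either side of a summit of the highest region within 1 kb of a TSS. The summit is that of the library with the higher fold. Windows are given for Rxrb, Pparg and Nr1h3 and for the leading gene of each other receptor group that had such a region. In the group of corticosteroid and progesterone receptors, Nr3c2 is shown although Nr3c1 had the higher region, whose sequence is not printed here. Rxra had no such region, so the window of its highest region, in an intron, was chosen in its place after the values had been seen. The summit of the other library lay outside the windows of Pparg (1258 bp away), Rara (789 bp), Nr1d1 (589 bp) and Nr1h3 (482 bp). It also lay outside those of Nr4a3 (356 bp), Rxra (143 bp), Rxrb (126 bp) and Nr6a1 (109 bp). Motif readings in these windows rest on the summit of 1 library. In the other windows both summits lay inside. All are from the plus strand of GRCm38, the assembly that mm10 names. Capitals mark every match, on either strand, to 8 short motifs, which were the RBPJ core TGGGAA and its longer form GTGGGAA, the nuclear receptor motif AGGTCA, the ETS motifs GAGGAA and CCGGAA, the AP-1 motif TGANTCA, the CEBP motif TTGCNNAA and the GC box GGGCGG. The longer RBPJ form contains the core.
Rxra: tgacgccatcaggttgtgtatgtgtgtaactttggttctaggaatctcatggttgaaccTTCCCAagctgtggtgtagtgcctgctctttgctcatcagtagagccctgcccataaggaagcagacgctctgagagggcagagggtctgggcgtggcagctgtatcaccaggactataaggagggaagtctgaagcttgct
Rxrb: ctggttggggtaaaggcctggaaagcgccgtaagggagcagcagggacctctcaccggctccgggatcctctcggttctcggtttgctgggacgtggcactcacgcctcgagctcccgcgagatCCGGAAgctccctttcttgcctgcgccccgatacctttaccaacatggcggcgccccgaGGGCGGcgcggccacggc
Pparg: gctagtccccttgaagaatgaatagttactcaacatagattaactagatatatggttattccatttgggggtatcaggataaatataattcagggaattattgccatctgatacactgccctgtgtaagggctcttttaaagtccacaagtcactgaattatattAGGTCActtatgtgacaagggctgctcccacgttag
Nr1h3: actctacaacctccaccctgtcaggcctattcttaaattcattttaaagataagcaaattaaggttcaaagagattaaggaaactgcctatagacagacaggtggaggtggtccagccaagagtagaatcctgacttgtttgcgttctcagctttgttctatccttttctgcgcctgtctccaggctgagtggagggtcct
Thra: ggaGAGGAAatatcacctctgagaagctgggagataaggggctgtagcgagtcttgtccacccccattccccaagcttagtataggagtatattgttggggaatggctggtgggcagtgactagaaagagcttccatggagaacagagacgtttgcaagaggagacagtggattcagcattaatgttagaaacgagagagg
Rara: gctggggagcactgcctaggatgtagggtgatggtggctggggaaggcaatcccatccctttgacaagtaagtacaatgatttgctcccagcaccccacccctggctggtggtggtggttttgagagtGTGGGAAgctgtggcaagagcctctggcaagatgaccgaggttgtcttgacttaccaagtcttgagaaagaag
Nr1d1: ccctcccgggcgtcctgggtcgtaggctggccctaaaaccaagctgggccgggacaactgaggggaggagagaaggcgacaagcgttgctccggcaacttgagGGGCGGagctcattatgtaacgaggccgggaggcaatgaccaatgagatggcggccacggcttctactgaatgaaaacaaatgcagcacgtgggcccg
Nr2c2: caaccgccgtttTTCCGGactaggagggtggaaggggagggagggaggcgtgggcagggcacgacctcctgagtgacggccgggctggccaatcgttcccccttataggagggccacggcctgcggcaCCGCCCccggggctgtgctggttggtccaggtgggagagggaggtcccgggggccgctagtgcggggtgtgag
Nr2f6: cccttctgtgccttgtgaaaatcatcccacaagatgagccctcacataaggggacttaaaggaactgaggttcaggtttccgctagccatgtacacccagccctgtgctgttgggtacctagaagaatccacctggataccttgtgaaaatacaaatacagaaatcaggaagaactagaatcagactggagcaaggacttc
Esrra: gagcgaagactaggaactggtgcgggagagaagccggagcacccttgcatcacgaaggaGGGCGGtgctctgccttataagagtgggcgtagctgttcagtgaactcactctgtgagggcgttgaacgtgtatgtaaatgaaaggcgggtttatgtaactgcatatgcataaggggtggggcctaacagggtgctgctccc
Nr3c2: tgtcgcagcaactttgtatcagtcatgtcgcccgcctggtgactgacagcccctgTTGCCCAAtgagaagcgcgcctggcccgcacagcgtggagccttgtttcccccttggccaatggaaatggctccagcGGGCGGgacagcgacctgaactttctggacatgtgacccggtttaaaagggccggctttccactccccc
Nr4a3: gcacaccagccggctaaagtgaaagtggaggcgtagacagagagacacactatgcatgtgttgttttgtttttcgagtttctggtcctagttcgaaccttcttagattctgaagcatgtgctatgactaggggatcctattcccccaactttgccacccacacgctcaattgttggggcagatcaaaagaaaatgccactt
Nr6a1: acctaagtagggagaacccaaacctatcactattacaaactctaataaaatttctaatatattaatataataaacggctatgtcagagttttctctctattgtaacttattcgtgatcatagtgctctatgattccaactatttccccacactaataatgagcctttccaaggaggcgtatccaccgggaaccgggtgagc

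The RXR windows lay at chr2:27715281-27715481 for Rxra and chr17:34031493-34031693 for Rxrb. Those of their heterodimer partners lay at chr6:115420921-115421121 for Pparg, chr2:91194137-91194337 for Nr1h3, chr11:98741029-98741229 for Thra and chr11:98940062-98940262 for Rara. The others were chr11:98773965-98774165 for Nr1d1, chr6:92092189-92092389 for Nr2c2, chr8:71382912-71383112 for Nr2f6, chr19:6921984-6922184 for Esrra, chr8:76902030-76902230 for Nr3c2, chr4:48043648-48043848 for Nr4a3 and chr2:38926541-38926741 for Nr6a1. Among the 13 windows, the RBPJ core was present in those of Rxra and Rara, and in Rara as the longer form. The nuclear receptor motif was present among the printed windows in Pparg alone, starting 65 bp from the summit. The windows of Nr1h3, Nr2f6, Nr4a3 and Nr6a1 held none of the 8 motifs. Summit windows held the core in 17.9% and the nuclear receptor motif in 10.2% of all autosomal consensus regions within 1 kb of a TSS. In windows of this size centred on TSSs instead, the core was found at 15.6% and the motif at 8.89% of all autosomal protein-coding TSSs.

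RBPJ consensus regions lay at the promoters of 19 receptor genes, which included those of the retinoic acid receptors RARα and RARγ, PPARδ and PPARγ, both LXRs, both REV-ERBs, RXRβ, ERRα, the glucocorticoid and mineralocorticoid receptors and 2 of the 3 NR4A genes. These were 19 of 45 genes (42.2%, Wilson 95% interval 29.0 to 56.7), where 34.7% of all autosomal protein-coding genes had one. In replicate 1, 24 receptor genes had a promoter peak, beside 47.2% of all genes. In replicate 2, 21 had one, beside 38.6% of all genes. Both lists had a promoter peak in 19 genes, and neither list had one in another 19. Of all 20807 autosomal genes, both lists had one in 7681 and neither had one in 10630. The share of all genes lay within the interval of the receptor genes, so the promoter count was near the background with the peak lists as given. With peaks held to a −log10 q of at least 5, 12 receptor genes kept a promoter region (26.67%), beside 24.9% of all genes. At a −log10 q of at least 10, 10 receptor genes kept one (22.2%, 12.5 to 36.3), beside 10.9% of all genes. At this last threshold the share of all genes lay below the interval of the receptor genes. Those 10 were Rara, Pparg, Nr1d1, Nr1h2, Rxrb, Nr2c2, Esrra, Nr3c1, Nr4a1 and Nr4a3. No test was run, and the intervals cover counting error over genes only.

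**Figure D1:**
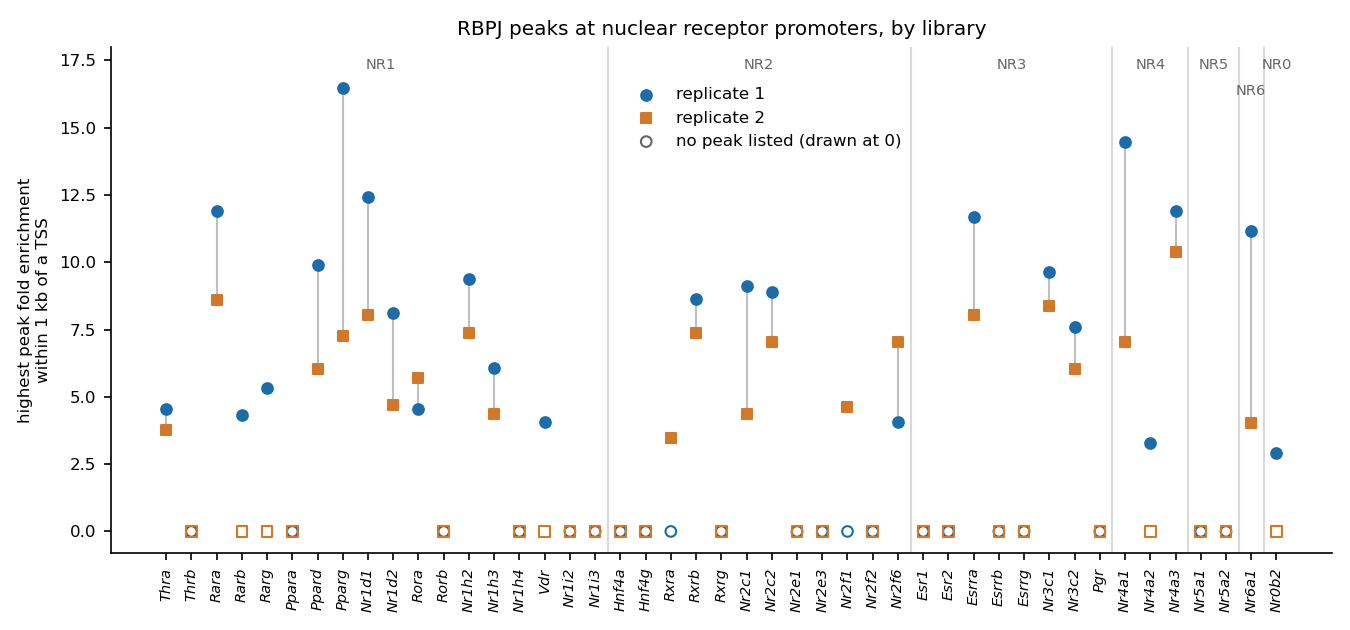
The vertical axis gives the highest fold enrichment of a peak within 1 kb of a TSS in replicate 1 (circles) and replicate 2 (squares) for each of the 45 genes, ordered by subfamily, with open symbols at 0 where no peak was listed. Pparg had the highest promoter fold in replicate 1 (16.5) and Nr4a3 in replicate 2 (10.4).

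The lists disagreed at 7 promoters. Rarb, Rarg, Vdr, Nr4a2 and Nr0b2 had promoter peaks in replicate 1 only, with highest folds of 4.31, 5.33, 4.06, 3.30 and 2.93. Rxra and Nr2f1 had them in replicate 2 only, with folds of 3.455 and 4.62. Fold here is the enrichment of a summit over background in its own library, as the peak caller of the authors gave it. These folds are low beside those of the 10 genes that passed the stricter threshold, a contrast that the choice by q sets in advance. Rora, a constitutive activator of clock genes, had promoter peaks in both lists that did not overlap, at folds of 4.57 and 5.69, so it had no promoter consensus region. Rarg counted among the 19 because a consensus region reached into its window although the peak of replicate 2 did not.

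Every region in the gene body or nearest to the gene was then counted. At least 1 consensus region was found for 28 receptor genes (62.2%), and 17 had none. Among all autosomal genes 45.9% had one. No interval was made for these shares. The receptor genes are longer than most, with a median of 49.2 kb against 17.6 kb for all genes, and the part of gene length in this count was not tested. The 28 genes had 119 distinct regions, and no region was counted for 2 receptors. By place of the summit, 34 were within 1 kb of a TSS, 55 in introns, 20 upstream and 10 downstream. The summit used here, and for distances from a TSS below, is that of the library with the higher fold unless a library is named. Their median width was 524 bp against 594 bp for all autosomal regions, and their median lower fold, the lower of the folds in the 2 libraries, was 4.35 against 4.69. Across the 119 regions the folds of the libraries had a Spearman rho of 0.49, beside 0.55 across all autosomal regions. These points share 2 libraries, and genes with many regions contribute most of them.

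**Figure D2:**
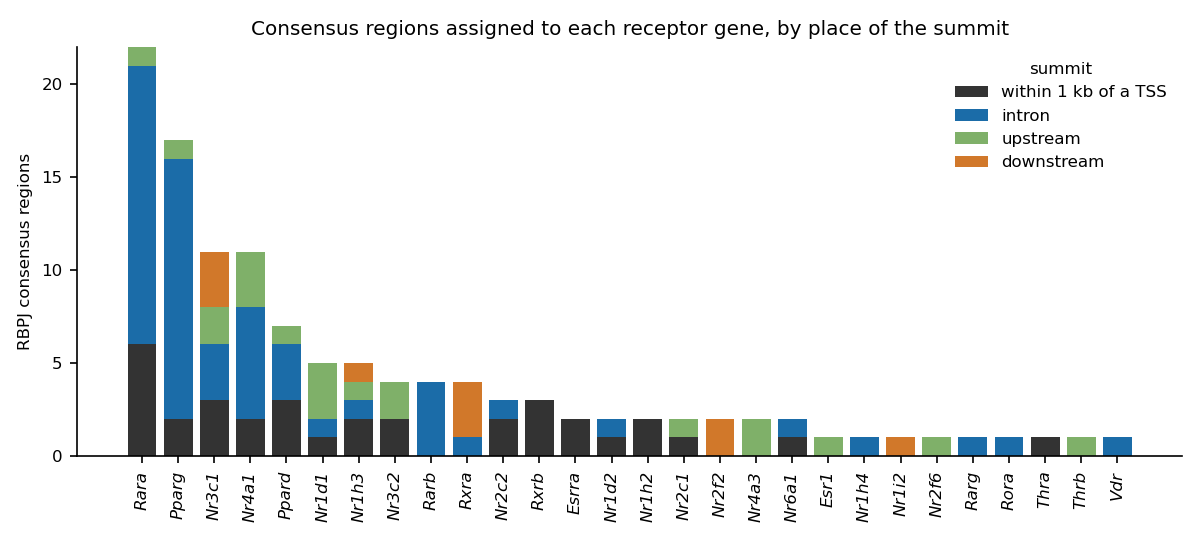
Bars give the number of consensus regions assigned to each of the 28 receptor genes that had any, divided by place of the summit. Rara (22), Pparg (17), Nr3c1 (11) and Nr4a1 (11) held 61 of the 119 regions.

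Rara, Pparg, Nr3c1 and Nr4a1 together held 51.3% of the regions. The 22 regions of Rara, or more, were found at 0.308% of autosomal genes, and the 17 of Pparg, or more, at 0.654%. The 11 regions of Nr3c1 and of Nr4a1 were matched or exceeded at 1.91% of genes. Ppard followed with 7, Nr1d1 and Nr1h3 with 5, and Rarb, Rxra and Nr3c2 with 4.

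In the RXR group, the 3 genes had different patterns. Rxra encodes RXRα, and none of its 4 TSSs had a consensus region within 1 kb. Its highest region lay in an intron at chr2:27714221-27716891, 4798 bp downstream of the nearest TSS, with folds of 13.95 and 10.04 in replicates 1 and 2. Only 2.63% of all consensus regions had a higher lower fold. The region was 2671 bp wide, and an RBPJ core started 41 bp from the summit in the window printed for Rxra. The other 3 regions of Rxra lay beyond the gene's end, 54613 to 58419 bp downstream of a TSS, with lower folds of 3.63 to 5.02. The most CpG-rich TSS of Rxra had 78.8% GC in the 1001 bp around it. Rxrb had 3 regions, all within 1 kb of its TSSs, and all 4 TSSs were covered. The highest, at chr17:34030859-34031845, had folds of 8.63 and 7.36 in replicates 1 and 2. It lay 219 bp upstream of a TSS and was also within 1 kb of the TSS of Slc39a7, a zinc transporter gene that was its nearest gene. Rxrb was the only receptor gene with a promoter region within 1 kb of another protein-coding TSS, and 1 of its 3 regions was not. Rxrg, the RXR of muscle and brain, had no peak in either list.

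**Figure D3:**
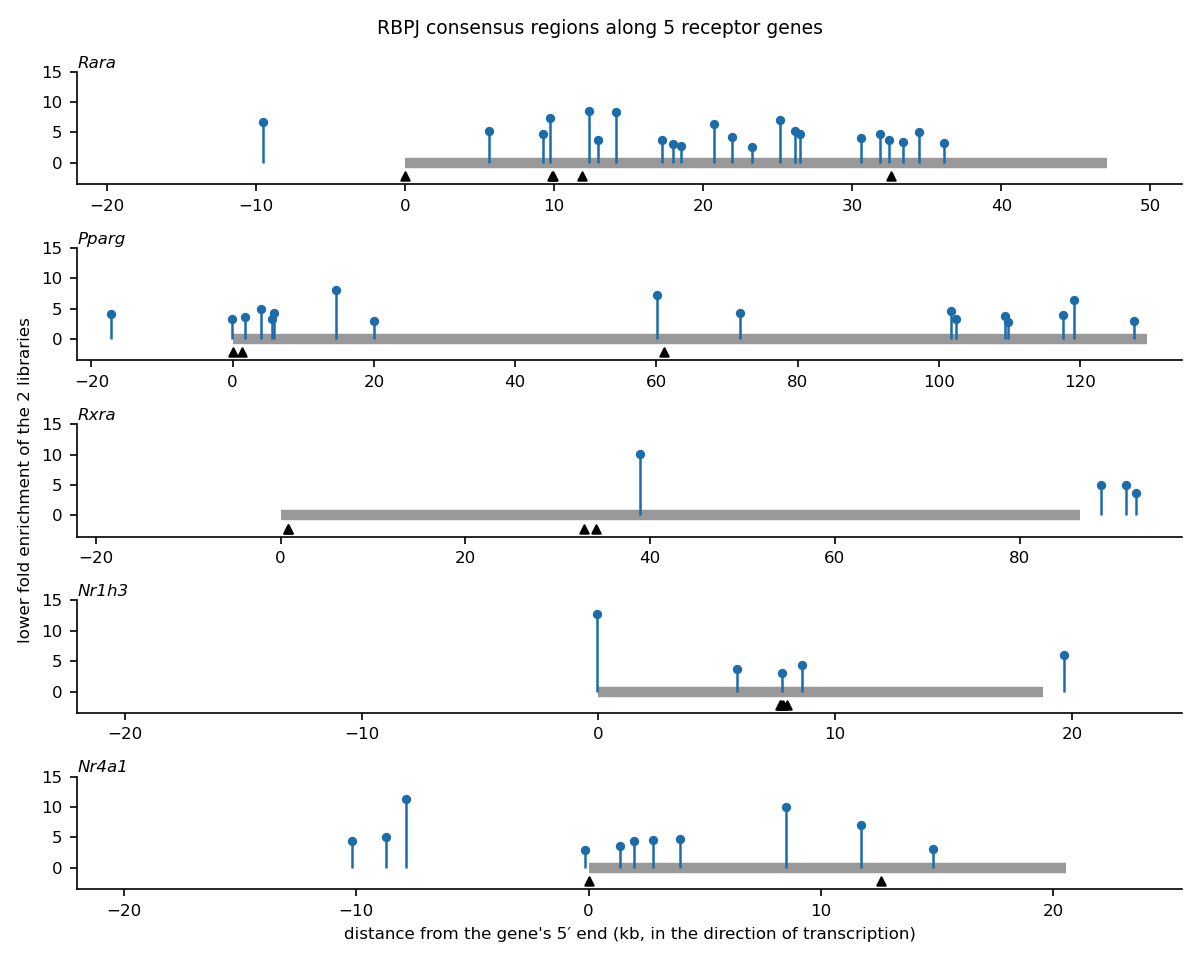
Each panel shows a receptor gene as a grey bar from its 5′ end (0 kb), with its TSSs as triangles and each consensus region as a line whose height is the lower fold of the 2 libraries. The highest region of Rxra lay inside the gene and away from the TSSs, that of Nr1h3 at the 5′ end of the annotated gene, and those of Rara and Pparg were spread along the gene.

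Among the PPARs, which respond to fatty acids, Pparg and Ppard had many regions and Ppara none. Pparg had 17 regions, 14 with the summit in an intron, and all 3 of its TSSs were covered. Its highest region by lower fold lay in an intron at chr6:115374812-115376603, with folds of 14.7 and 8.03 in replicates 1 and 2. A 6563 bp region over the third TSS, at chr6:115419124-115425686, was the widest of any receptor gene and had folds of 16.5 and 7.26. The window printed for Pparg comes from this region, at the summit of replicate 1, which lay 1045 bp upstream of the TSS. The summit of replicate 2 was 1258 bp away, downstream of that TSS. At the start of the gene, the regions were lower. The one 166 bp upstream of a TSS had folds of 7.61 and 3.35, and the one 415 bp downstream had 3.81 and 3.68. A 3143 bp region that reached within 1 kb of the second TSS had folds of 7.10 and 5.02. Ppard had 7 regions, and its highest was intronic, with folds of 7.10 and 5.85. Its promoter region 53 bp upstream of a TSS had folds of 5.835 and 6.025. Ppara, the PPAR of liver fatty acid oxidation, had 1 peak in replicate 1, at a fold of 2.28, and none in replicate 2.

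Both LXR genes, whose products sense oxysterols, had promoter regions. Nr1h2, encoding LXRβ, had folds of 9.39 and 7.36 in a region 34 bp upstream of a TSS. Nr1h3, encoding LXRα, had the highest region of any receptor gene, with folds of 12.7 and 14.1 at chr2:91202429-91203194. Only 0.794% of all consensus regions had a higher lower fold. This region lay 7734 bp upstream of the nearest TSS of the basic transcripts, at the 5′ end of the annotated gene, and covered the TSS of Acp2, a lysosomal acid phosphatase gene, which was its nearest gene. Peak position does not tell which of the adjoining genes it belongs to. Within 1 kb of the basic TSSs of Nr1h3, the highest region had folds of 5.58 and 4.35. Nr1h4, which encodes the bile acid receptor FXR, had 1 intronic region with folds of 6.34 and 3.68 that was nearer to the TSS of Gas2l3.

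The retinoic acid receptor genes all had regions. Rara had 22, of which 15 had the summit in an intron and 6 within 1 kb of a TSS, and 4 of its 5 TSSs were covered. Its highest had folds of 11.4 and 8.58 and lay 451 bp downstream of a TSS by the summit of replicate 1. The summit of replicate 2 was 789 bp away, upstream of that TSS. Another region, 3132 bp wide and 2233 bp downstream of a TSS, had folds of 14.97 and 8.37. Rarb had 4 regions, all intronic, and the highest had folds of 6.09 and 9.04, higher in replicate 2. Rarg had 1 region with folds of 3.30 and 3.68. The thyroid hormone receptor genes had low values. Thra had folds of 4.57 and 3.35 at its promoter, and Thrb had 3.20 and 4.29 in a region 246452 bp upstream.

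The REV-ERBs, repressors in the circadian clock, both had promoter regions. Nr1d1 had 5 regions in and around a 7.40 kb gene, and the highest had folds of 12.4 and 8.03 with the summit 1268 bp downstream of the TSS. Nr1d2 had 2, with folds of 6.60 and 4.69 for the one 96 bp upstream of its TSS. Rora had 1 intronic region with folds of 5.33 and 3.35, and Rorb, which acts in neural tissue, had no region. Vdr, the vitamin D receptor gene, had 1 intronic region with folds of 8.12 and 6.025. Nr1i2, encoding the xenobiotic receptor PXR, had 1 region downstream of the gene with folds of 5.835 and 3.68, and Nr1i3, encoding CAR, had no peak in either list.

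The other NR2 genes had fewer regions. The testicular receptor genes Nr2c1 and Nr2c2 both had promoter regions, with folds of 9.13 and 4.35 for Nr2c1 and of 7.865 and 7.03 for Nr2c2. An intronic region of Nr2c2 differed most between libraries among the NR2 regions, with 14.2 in replicate 1 and 4.69 in replicate 2. Of the COUP-TF genes, Nr2f6 had folds of 4.06 and 4.28 in a region whose summit lay 1052 bp upstream of its TSS. Nr2f2 had 2 regions, the higher with folds of 5.58 and 5.69, 59943 bp downstream of a TSS. Nr2f1, the HNF4 genes of liver and gut (Hnf4a, Hnf4g) and the neural and retinal genes Nr2e1 and Nr2e3 had none.

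In the NR3 subfamily the regions lay at 4 of 8 genes. Nr3c1, encoding the glucocorticoid receptor, had 11, and 2 of its 4 TSSs were covered. Its highest had folds of 9.64 and 8.37 and lay 997 bp upstream of a TSS. Another 3 lay more than 200 kb downstream of a TSS. Nr3c2, encoding the mineralocorticoid receptor, had 4, and the highest had folds of 7.61 and 6.025 at 158 bp upstream. Esrra, encoding ERRα, a receptor of mitochondrial gene programmes, had 2 promoter regions, the higher with folds of 11.7 and 8.03. Esr1, encoding the estrogen receptor ERα, had 1 upstream region with folds of 3.30 and 4.69. Esr2, Esrrb, Esrrg and the progesterone receptor gene Pgr had none.

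Of the NR4A genes, which are induced rapidly by many stimuli and act without a known physiological ligand, Nr4a1 and Nr4a3 had high regions and Nr4a2 had none. Nr4a1 had 11 regions, of which the highest lay 7856 bp upstream of a TSS at chr15:101246028-101247786, with folds of 11.7 and 11.4. A region in the gene 4086 bp upstream of its second TSS had folds of 11.7 and 10.04. Nr4a3 had a 3339 bp region at chr4:48042004-48045342 that reached its TSS, with folds of 11.9 and 10.4. Nr4a2 had 8 peaks in replicate 1 and 6 in replicate 2 that did not overlap each other, with highest folds of 5.33 and 4.69. Nr6a1, encoding the germ cell factor GCNF, had a promoter region with folds of 11.2 in replicate 1 and 4.02 in replicate 2. Nr5a1 and Nr5a2, whose products control steroid synthesis and bile acid genes, and Nr0b2, which encodes the corepressor SHP, had no region.

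**Figure D4:**
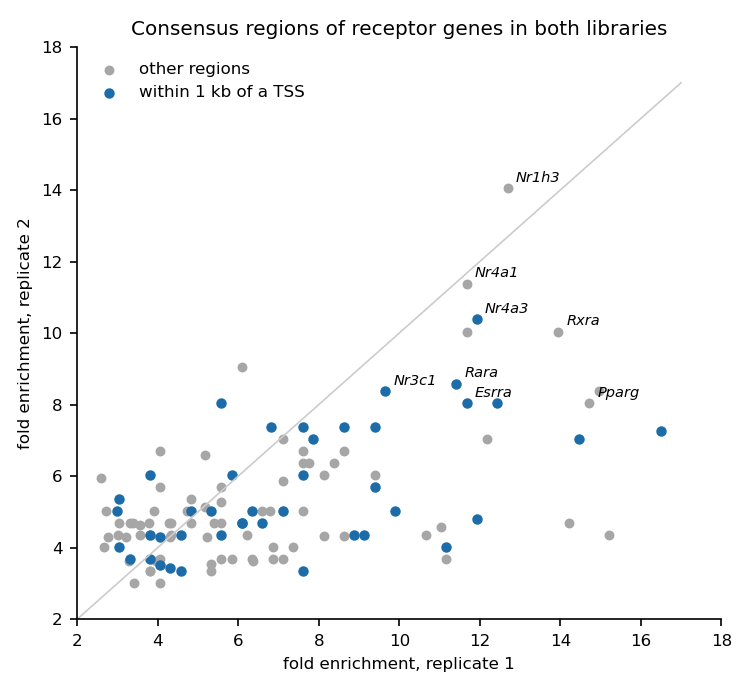
Each point is 1 of the 119 consensus regions of receptor genes, with its fold enrichment in replicate 1 on the horizontal axis and in replicate 2 on the vertical axis. The line marks equal folds, 82 points lay below it, and the 8 genes with the highest lower fold are named.

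In 82 of the 119 regions the fold was higher in replicate 1, and in 37 it was higher in replicate 2. Replicate 1 was higher in 68.9% of these regions and in 72.2% of all autosomal regions. The highest region of 15 genes reached within 1 kb of a TSS of the gene, and that of the other 13 did not. The highest regions of 9 genes ranked in the upper 10% of all consensus regions by lower fold. This sets the highest of a gene's regions against all single regions, and the same count for all genes was not made. Among genes with a region, the median lower fold of the highest one was 6.025 for receptor genes and 5.835 for all autosomal genes.

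The 17 genes without a consensus region fell into 3 sets. Nr1i3, Rxrg, Nr2e1 and Esrrb had no peak in either list. Ppara, Rorb, Hnf4a, Hnf4g, Nr2e3, Pgr, Nr5a1, Nr5a2 and Nr0b2 had peaks of 1 library only. Esr2, Esrrg, Nr2f1 and Nr4a2 had peaks of both libraries that did not overlap. The highest fold in all of these was 6.72, in replicate 1 near Esr2. Sequencing depth could not be read from the lists, so a missing peak means that none was listed and not that RBPJ was absent.

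Set by subfamily, a promoter consensus region was found in 9 of 18 NR1 genes (50%, 29.0 to 71.0), 4 of 12 NR2 genes (33.3%, 13.8 to 60.9), 3 of 8 NR3 genes (37.5%, 13.7 to 69.4) and 2 of 3 NR4 genes (66.7%, 20.8 to 93.85). The single NR6 gene had one, and the 2 NR5 genes and the NR0 gene had none. All of these intervals overlapped one another, and those of NR1, NR2, NR3 and NR4 contained the share of all genes. Regions of any place were found in 15 of 18 NR1 genes (83.3%), 6 of 12 NR2 genes (50%), 4 of 8 NR3 genes (50%) and 2 of 3 NR4 genes (66.7%). Of all autosomal genes 45.9% had one, and no interval was made for these shares. The median length was 51.7 kb for NR1 genes against 17.6 kb for all genes, and the part of length in these counts was not tested. In NR1, 60.6% of the 71 regions had an intronic summit, while in NR2 it was 13.3% of 15 and in NR3 16.7% of 18. Rara and Pparg supplied 29 of the 43 intronic summits of NR1.

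**Figure D5:**
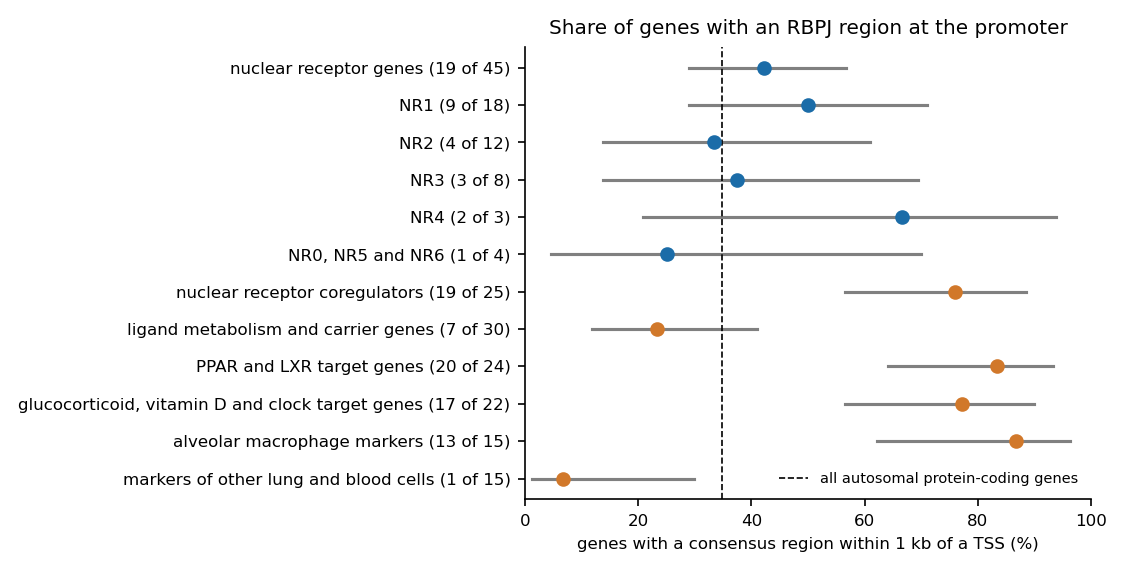
Points give the percent of genes with a consensus region within 1 kb of a TSS, bars the Wilson 95% interval, and the dashed line the share of all autosomal protein-coding genes. The intervals of the receptor subfamilies include the line, and the lists of coregulators, target genes and AM markers lie above it.

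CpG content of the promoters went along with these counts. A TSS was called CpG-rich where the 1001 bp around it had at least 50% GC and an observed to expected CpG ratio of at least 0.6. Of the receptor genes 32 had such a TSS (71.1%), against 50.6% of all genes. A promoter region was present in 17 of the 32 (53.1%, 36.45 to 69.1), beside 55.6% of all genes with a CpG-rich TSS. Of the other 13 it was present in 2 (15.4%, 4.33 to 42.2), beside 13.3% of all genes without one. The 2 were Nr1d1 and Nr1h3. In both classes the share of all genes lay inside the interval of the receptor genes. The split was not made for peaks held to a −log10 q of at least 10. The part of CpG content in the shares at that threshold (22.2% and 10.9%) was therefore not tested. Of 114 distinct TSSs of receptor genes 36.0% had a consensus region, beside 34.1% of all TSSs. Of the 36 receptor genes with more than 1 TSS, 8 had a region at every TSS, 6 at some and 22 at none.

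Motif shares under the regions were set beside those of all regions. The summits of the 2 libraries were within 100 bp of each other in 65 of the 119 regions (54.6%), beside 52.35% of all autosomal regions. Within 100 bp of the summit of the higher-fold library, the RBPJ core was found in 20 of the 119 regions (16.8%), beside 18.8% of all autosomal consensus regions. The longer RBPJ form was found in 5.04%, beside 4.63%. The nuclear receptor motif was found in 19 regions (15.97%), beside 13.3%. The 20 regions with the core belonged to 10 genes, and it lay under the highest region of Rxra, Rara, Rarb, Ppard, Vdr and Nr2f2. The 19 with the nuclear receptor motif belonged to 12 genes, among them Pparg, Nr3c1, Nr1d2, Rora and Vdr with the motif under the highest region. Both motifs were found in 5 regions, at Rara, Vdr, Esrra and Nr4a1. A direct repeat of the nuclear receptor motif with 1 base between was found in none of the 119 regions, which allows a share of up to 2.52%, and in 0.0516% of all regions. The ETS motif GAGGAA was found in 30.3%, beside 29.4%, the AP-1 motif in 10.1%, beside 9.32%, the CEBP motif in 12.6%, beside 14.3%, the ETS motif CCGGAA in 9.24%, beside 8.99%, and the GC box in 15.97%, beside 14.2%. By place, the GC box was in 38.1% of the 42 regions that reached a TSS window and in 3.90% of the other 77, beside 32.1% and 4.71% of all regions in these places. GAGGAA was in 19.0% and 36.4%, beside 23.0% and 32.7%.

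Genes that work with the receptors were set beside them. Of 25 coregulator genes, whose products join receptors to the transcription machinery, 19 had a promoter region (76.0%, 56.6 to 88.5). Among the highest were Nrip1, a corepressor, with folds of 13.45 and 13.05, Hdac3, a histone deacetylase, with 12.9 and 15.4, and Tbl1xr1 with 11.5 and 10.7. None of these 3 regions was within 1 kb of a TSS of its gene. Ncoa5, Ppargc1a and Crebbp had no region. Of 30 genes that make, degrade or carry ligands, 7 had a promoter region (23.3%, 11.8 to 40.9). The highest regions were those of Dhrs3, which reduces retinal and had folds of 12.4 and 10.04 in the highest of 23, of Srd5a1 with 10.4 and 8.03, of Hsd17b4 with 7.55 and 9.04 in an intron, and of Rdh10 with 11.9 and 7.03 downstream of the gene. Those of Dhrs3 and Srd5a1 lay within 1 kb of a TSS. There were 20 without a region, among them Cyp27a1, Ptgds and Cyp24a1.

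Receptor target genes had promoter regions at a higher share. Of 24 targets of PPARs and LXRs, 20 had one (83.3%, 64.15 to 93.3). Among the highest were Angptl4 with folds of 14.97 and 12.2, Plin2, a lipid droplet coat gene, with 13.2 and 11.3, Klf9 with 10.9 and 14.1, and Abcg1, a sterol exporter, with 10.4 in both libraries. The summit of the region was within 1 kb of a TSS for Klf9, in an intron for Angptl4 and Abcg1, and farther upstream for Plin2. Apoe and Scd2 had no region. Of 22 targets of the glucocorticoid and vitamin D receptors and the clock, 17 had one (77.3%, 56.6 to 89.9). The highest were Sgk1 with folds of 21.8 and 15.1, Per1 with 17.6 and 13.4, Per2 with 20.9 and 12.4, and Nfil3 with 15.5 and 11.7, all with the summit within 1 kb of a TSS except that of Per2, which was in an intron, while Npas2, Cyp24a1 and Clock were among 4 without a region. The lists share Klf9, Fabp4 and Cyp24a1 between them. The intervals of the 3 lists of coregulators and targets lay above the 34.7% of all genes, and that of the ligand genes contained it. These lists too were chosen with earlier results of these data known, so their counts are a description. The coregulators had 21 of 25 genes with a CpG-rich TSS, and the glucocorticoid, vitamin D and clock targets 21 of 22, while the PPAR and LXR targets had 11 of 24. The part of CpG content in these counts was not tested.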

How the data were processed

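RBPJ peak lists of 2 AM libraries were analysed, and the 2 inputs have no file here. The study's methods and the submitters' processing notes name bcl2fastq (2.20.0.422) and CASAVA for demultiplexing, cutadapt for trimming, Bowtie2 for alignment to mm10, SAMtools for read filters and MACS3 for peaks, which the authors called per library with input as control and a q cutoff of 0.05. Columns of the deposited lists hold a display score, which was not used, the fold enrichment ratio of the summit, and −log10 p and −log10 q values. A further deposited column, another kind of number, holds the summit offset in bases. These are the authors' values, and they do not give the depth, so the number of libraries limits the precision.

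No peak reached beyond the chromosome ends of GRCm38, TSSs are those of basic GENCODE transcripts, and sequence is from the RefSeq GRCm38 genome. Peaks of the libraries overlapping by at least 1 bp were merged into consensus regions. A region belonged to a gene when it overlapped its body or when the gene had the TSS nearest to the summit of the higher-fold library. Promoter shares of the receptor genes and lists carry Wilson 95% intervals in the main setting. Scripts used Python 3.11.15, pandas 2.3.3, numpy 2.4.6, pysam 0.24.0 and matplotlib 3.10.9, and were tested on planted peaks. No test between groups was run, and other windows, thresholds, transcript sets and single libraries were tried as alternatives.

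Members and lists were chosen with earlier results of these data known. By rule, every member is accounted for with its highest region by lower fold, and other lists name up to 4 genes with the highest region and up to 3 without one; some named by this rule are not reported here. Among 45 receptor genes, 41 had an entry in the RefSeq promoter table, which was not printed.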

Additional observations from a re-analysis of the deposited data

How the results depend on the processing

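The number of libraries (2) sets the limit on every count, and no paired analysis was possible because the inputs have no file here and no result comes from a test. Of the 45 receptor genes, the 19 with a promoter region became 12 at a −log10 q of at least 5 (all genes 24.9%) and 10 at 10 (all genes 10.9%). The share of all genes was 32.7% for a 500 bp window, 37.4% for 3 kb, 32.4% with the summit of each library in the window, 23.3% with summits within 100 bp, 36.8% with a peak of each library in the window of the same TSS, 36.1% with all transcripts and 31.6% with replicate 1 shortened to the length of replicate 2, while the count of receptor genes stayed between 14 and 19. Using 1 library alone gave 38.6% and 47.2% of all genes and 21 and 24 receptor genes. An alternative chosen after seeing the data left out regions near the TSS of another gene. With it, 19 receptor genes (42.2%, 29.0 to 56.7) and 26.4% of all genes had a promoter region. The share of all genes then lay below the interval of the receptor genes.

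NR1 fell to 5 and 4 genes and NR2 to 2 and 2 at the 2 stricter thresholds. The 1 gene of NR0, NR5 and NR6 became 0 at both and with summits within 100 bp, and using 1 library alone gave 1 and 2. NR4 became 1 with the summit of each library in the window and with summits within 100 bp. At a −log10 q of at least 10, coregulators fell to 7, ligand genes to 2 and PPAR and LXR targets to 10. With summits within 100 bp, ligand genes fell to 4 and PPAR and LXR targets to 13, and 1 library alone gave 7 and 11 ligand genes.

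The 28 genes with any region became 17 and 13 (all genes 34.5% and 17.21%) and the 119 regions 51 and 21 at the stricter thresholds. A library alone gave 36 and 37 genes (all genes 59.1% and 64.0%). There were 68 regions with summits within 100 bp, and 248 and 487 with 1 library alone. Within 50 bp of the summit, where the window is shorter, shares fell to 8.40% for the RBPJ core (all regions 10.01%), 1.68% for its longer form (2.32%), 7.56% for the nuclear receptor motif (6.95%), 15.1% for GAGGAA (17.02%) and 9.24% for the GC box (8.36%). With the summit of the lower-fold library, CCGGAA was in 5.04% (9.06%) and the longer RBPJ form in 2.52% (4.83%). GAGGAA was in 24.4% (27.5%), the AP-1 motif in 6.7% (8.3%) and the GC box in 14.29% (14.38%). All of these were then below the share of all regions, and above it with the summit of the higher-fold library. The RBPJ core and the CEBP motif were below it, and the nuclear receptor motif above it, with either summit. The cause of the other changes was not tested.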
